A study of Mus musculus with 33 samples.

Results

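The genes described are 42 genes of gut epithelium and of the enterocyte, the absorptive cell that lines the intestine. They were taken from a fixed list of symbols, and a probe set counted for a gene when the platform annotation gave it exactly 1 symbol and that symbol was on the list. All 42 genes were measured, by 74 of the 34945 probe sets used, out of 18193 genes in all, and where a gene had several probe sets their scores were averaged. For 24 of the genes there was 1 probe set, and no gene had more than 5. The genes fall by role into 8 of cell adhesion and junctions, 3 keratins, 11 regulators of transcription or splicing, 6 of lipid handling, 8 of the brush border and cell surface, and 6 whose products are secreted or act in secretion.

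The study profiled mouse tissue and cells of embryonic day 14.5 on Affymetrix arrays. The 8 whole guts came from wild-type C57BL/6 embryos, were dissected from the duodenum to the anus and were read on 1 array each, all in batch 2. Enteric neural crest cells (ENCCs), the precursors of the nervous system of the gut, came from C57BL/6 embryos with Wnt1-Cre and a LoxP/R26-YFP reporter. Wnt1-Cre acts in the neural crest and its descendants, so YFP marks those cells, which were sorted by FACS and cultured on fibronectin with FGF and EGF. The cells of 1 gut were divided over a well with 50 ng/ml GDNF and a well without it. The 9 GDNF-treated RNAs were read on 13 arrays and the 9 untreated RNAs on 12, and batch 2 holds 4 arrays of each, from guts 2, 3, 8 and 9. Whole guts and ENCCs thus differ in reporter genotype, sorting and culture as well as in cell make-up, and these cannot be told apart. The whole guts and the guts that gave ENCCs were numbered separately, so the same number does not mean the same gut. A characteristics label calls the whole gut samples neural crest cells, while their source label names whole gut.

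The epithelium of the gut arises from endoderm and forms a single sheet closed by adherens and tight junctions. Factors of the Cdx, Foxa, Hnf4 and Gata families specify it, and around the embryonic age studied the sheet begins to form villi whose cells take up and package lipid. Neural crest cells have another origin, the ectoderm, and are not epithelial once they migrate, so a sort for their reporter is meant to leave the epithelium out.

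Promoter letters are shown for the genes on which the comparisons among whole guts turn, with Fabp1, a fatty acid binding protein of enterocytes, as the member with the most motif matches of those shown. The 250 bases before the start of transcription were found for 31 of the 42 genes in a RefSeq table of build GRCm38.p6. Capitals mark matches to the letters TTTATG (for CDX), CAAAGTC (for HNF4), GTTAAT (for HNF1), TGTTTAC (for FOXA) and AGATAA (for the GATA family), each on both strands, and TATAAA (for the TATA box) on the strand of the gene. No matches overlap one another. Fabp1 lies on the + strand at chr6:71199629-71199878, Guca2a on the + strand at chr4:119637482-119637731 and Guca2b on the - strand at chr4:119658946-119659195. Apoa4 lies on the + strand at chr9:46240594-46240843 and Cldn6 on the + strand at chr17:23679115-23679364. Each line runs from 5′ to 3′ along the gene.
Fabp1: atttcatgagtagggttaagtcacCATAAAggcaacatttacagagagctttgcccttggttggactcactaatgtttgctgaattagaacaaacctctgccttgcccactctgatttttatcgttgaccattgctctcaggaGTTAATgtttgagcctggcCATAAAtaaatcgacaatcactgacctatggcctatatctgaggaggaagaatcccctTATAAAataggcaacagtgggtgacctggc
Guca2a: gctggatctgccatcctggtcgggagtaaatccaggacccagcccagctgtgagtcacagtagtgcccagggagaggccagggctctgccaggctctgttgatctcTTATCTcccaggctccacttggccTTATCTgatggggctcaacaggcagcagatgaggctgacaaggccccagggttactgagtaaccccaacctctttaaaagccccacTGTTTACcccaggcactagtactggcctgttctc
Guca2b: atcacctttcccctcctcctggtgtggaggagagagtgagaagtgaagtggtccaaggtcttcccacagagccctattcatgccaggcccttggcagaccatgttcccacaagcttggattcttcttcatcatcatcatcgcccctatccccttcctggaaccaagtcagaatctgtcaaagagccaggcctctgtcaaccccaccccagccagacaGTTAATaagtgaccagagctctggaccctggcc
Apoa4: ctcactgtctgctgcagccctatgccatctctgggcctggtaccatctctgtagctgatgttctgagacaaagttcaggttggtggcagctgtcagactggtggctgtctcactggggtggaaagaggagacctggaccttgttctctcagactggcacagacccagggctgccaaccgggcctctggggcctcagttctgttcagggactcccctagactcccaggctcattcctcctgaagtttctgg
Cldn6: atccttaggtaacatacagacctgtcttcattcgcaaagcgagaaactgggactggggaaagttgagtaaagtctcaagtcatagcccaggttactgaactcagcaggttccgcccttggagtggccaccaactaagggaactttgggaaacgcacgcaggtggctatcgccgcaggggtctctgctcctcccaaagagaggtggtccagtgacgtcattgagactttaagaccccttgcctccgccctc
Fabp1 holds a TATA match that begins 30 bases before the start, an HNF1 match at 107 bases and CDX matches at 88 and 226 bases. Guca2a, which encodes guanylin, holds a FOXA match at 34 bases and GATA matches at 120 and 144 bases, and its neighbour Guca2b holds an HNF1 match at 33 bases. Apoa4 and Cldn6 hold no match in this window. Among the 31 genes FOXA letters were present in 4 (12.9%, against 3.54% of all 27025 genes of the table) and HNF1 letters in 6 (19.4% against 7.49%). GATA letters were present in 6 (19.4% against 11.4%) and TATA letters in 5 (16.1% against 8.94%). CDX letters were present in 4 (12.9% against 12.4%) and HNF4 letters in 1 (3.23% against 4.33%). These shares describe letters and were not tested, and a match is not a site of binding.

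The deposited values are scores and not intensities. Each array is a set of ranks turned into normal quantiles, from -4.084 to 4.084 with 0 at the middle, and the values show that probe sets had been centred and scaled on the ENCC arrays of a batch before that. A score of whole gut therefore places a gene, within its array, by its distance from the ENCCs in units of how much that gene varies among them. Differences are in score units and are no folds, their order is no order of fold, and scores of different genes do not compare their levels. Whether a gene is expressed above background in ENCCs cannot be read from them. The neural crest and neuron genes measured served to check the labels: 13 of 13 were lower in whole gut than in untreated ENCCs, and 10 of 13 with a variance for each group. Among ENCC wells of batch 2 both wells of gut 3 had high medians over the 42 genes, 0.36 with GDNF and 0.38 without it. The other GDNF-treated wells lay between -0.25 and -0.029, and the other untreated wells between -0.39 and -0.13. In batch 1 the same RNAs of gut 3 had medians of -0.035 with GDNF and -0.21 without it. The high medians of gut 3 thus did not repeat between batches.

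Gut epithelium genes were higher in whole gut than in ENCCs in every role, with or without GDNF. Against untreated ENCCs the median difference over the 42 genes was 2.65, where the median over all genes was 0.011. The differences ran from 0.82 for Prom1, a protein of membrane protrusions, to 4.47 for Lgals4, a galectin of the intestinal lining. Limma called 41 of the 42 genes higher and 0 lower at an adjusted p threshold of 0.05, while it called 22.8% of all genes higher and 19.8% lower. The gene that did not pass was Foxa3 (0.98, limma adjusted p = 0.0634). In bulk samples fewer cells of a type and less RNA per cell cannot be told apart.

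The 8 whole guts varied far less in score than the wells. The median SD over all genes was 0.154 among whole guts, against 0.709 among GDNF-treated and 0.755 among untreated wells. Probe sets had been scaled on the ENCC arrays before ranking, so these SDs do not compare the spread of expression. A fit that gives each group its own variance called 39 of the 42 genes higher than in untreated ENCCs, beside 11.7% of all genes. It no longer called Gata4 (1.11, limma adjusted p = 0.0757) and Guca2b (2.91, limma adjusted p = 0.0666). In 39 genes every whole gut lay above every untreated well of batch 2, as in 15.2% of all genes. The exceptions were Cldn7, Foxa3 and Elf3, and in each the well that reached the whole guts was the untreated well of gut 3. Without that well limma called all 42 genes, with Foxa3 at 1.575. Batch 1, scaled on its own ENCC arrays, was left out of these counts. There the untreated well of gut 6 scored above all whole guts in Krt8 (3.67), Cldn4 (3.44) and Krt18 (2.91). So did the untreated wells of gut 1 in Tm4sf5 (2.999) and of gut 4 in Prom1 (1.78).

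Against GDNF-treated ENCCs, limma called all 42 genes higher and 0 lower, where it called 26.0% of all genes higher and 25.1% lower. With a variance for each group it again called 42, beside 15.9% of all genes. The median difference over the 42 genes was 2.37, where that over all genes was 0.015, and the range ran from 0.91 for Gata4 to 3.98 for Guca2b. In 41 genes every whole gut lay above every GDNF-treated well of batch 2, as in 17.1% of all genes. The exception was Krt20, for which the GDNF-treated well of gut 9 scored 2.25, above the range of the whole guts. In batch 1, which was left out, the GDNF-treated well of gut 5 scored 1.545 for Foxa3, above all whole guts. This comparison shares its 8 whole guts with the one against untreated ENCCs, so the 2 are not independent of each other.

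**Figure D1:**
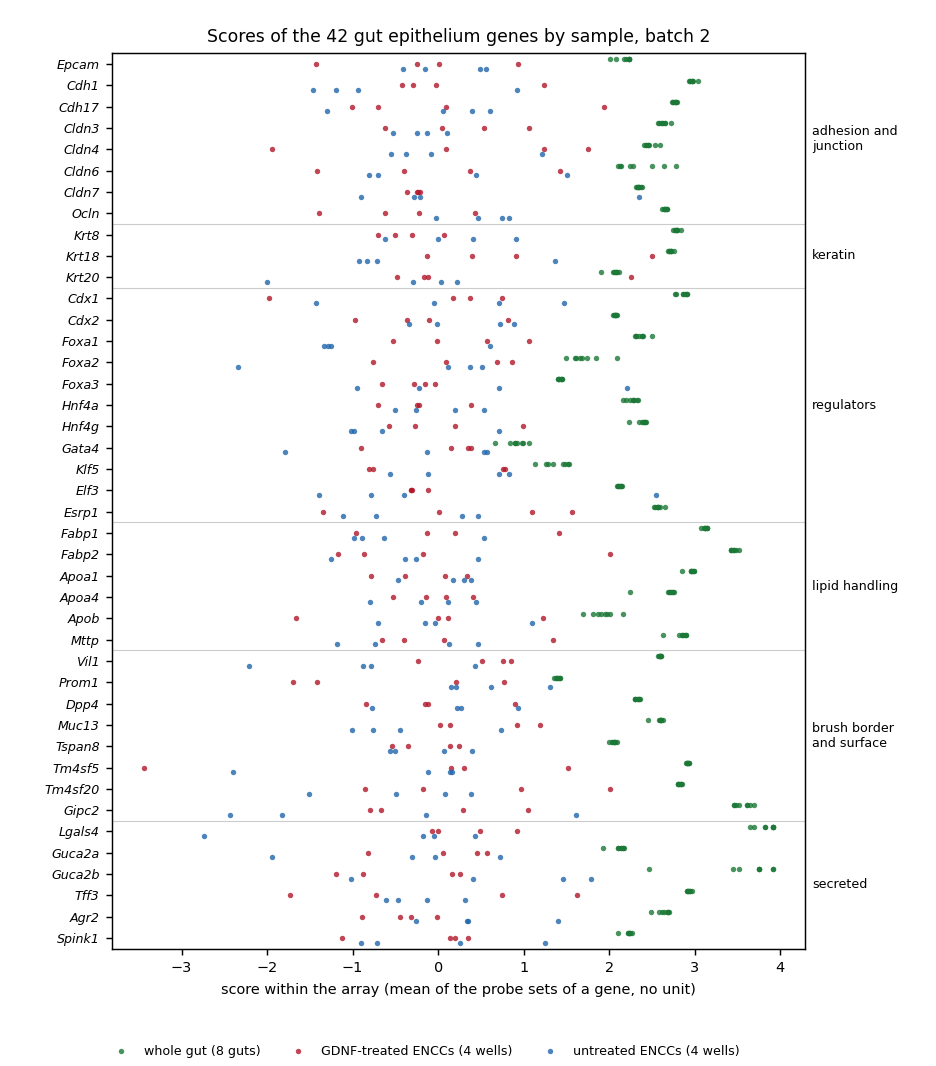
Score of each of the 42 genes in each batch 2 sample, with genes down the page by role and the score within the array on the horizontal axis. Points are 8 whole guts, 4 GDNF-treated wells and 4 untreated wells, and the whole gut points lie to the right of all wells in every gene but Cldn7, Foxa3, Elf3 and Krt20.

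Of the adhesion and junction genes, all 8 were called higher in whole gut in both comparisons, with median differences of 2.49 against GDNF-treated and 2.33 against untreated wells. Cdh1, which encodes E-cadherin, scored 2.93 at the lowest, 2.97 at the median and 3.04 at the highest in the whole guts. In the wells of guts 2, 3, 8 and 9 it scored -0.024, 1.24, -0.29 and -0.43 with GDNF, and -1.46, 0.92, -1.20 and -0.94 without it. The groups did not overlap, and gut 3 gave the highest well on both sides. Cdh1 differed by 2.85 from GDNF-treated wells (limma adjusted p = 8.4e-07) and by 3.64 from untreated wells (adjusted p = 1.5e-06), the largest difference of this role against untreated wells.

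Epcam, the epithelial cell adhesion molecule, had the smallest such difference of its role as the mean of its probe sets. Singly, the 2 differed from untreated wells by 3.13 and 0.98. Its scores were 2.01, 2.21 and 2.24 at the lowest, median and highest of the whole guts. The wells of guts 2, 3, 8 and 9 scored -1.43, -0.24, 0.94 and 0.0075 with GDNF and 0.48, 0.55, -0.41 and -0.16 without it. No well reached a whole gut, and the difference was 2.355 from GDNF-treated wells (limma adjusted p = 3.1e-05) and 2.055 from untreated wells (adjusted p = 1.9e-06). Cdh17, the cadherin of intestine and liver, differed by 2.68 and 2.82. Among the tight junction genes the differences from GDNF-treated and untreated wells were 2.37 and 2.83 for Cldn3, 2.19 and 2.42 for Cldn4, and 2.61 and 2.11 for Cldn7. Occludin, encoded by Ocln, differed by 3.10 and 2.15.

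Cldn6, a claudin of embryonic epithelia, varied more among whole guts than the other junction genes. It scored 2.105 to 2.78 in the whole guts, with a median of 2.265 and an SD of 0.256. The wells of guts 2, 3, 8 and 9 scored -1.42, 0.37, 1.43 and -0.40 with GDNF and -0.71, -0.81, 1.51 and 0.44 without it. All whole guts lay above all wells, and the whole gut mean lay 2.36 above that of the GDNF-treated wells (limma adjusted p = 2.2e-04) and 2.245 above that of the untreated wells (adjusted p = 1.5e-04).

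The keratin genes Krt8 and Krt18 encode the pair of intermediate filament proteins of simple epithelia, and Krt20 a keratin of mature enterocytes. All 3 were called higher in whole gut in both comparisons. Krt18 scored 2.69, 2.71 and 2.75 at the lowest, median and highest of the whole guts, against -0.14, 0.40, 0.91 and 2.50 in the GDNF-treated and 1.37, -0.72, -0.83 and -0.92 in the untreated wells of guts 2, 3, 8 and 9. The GDNF-treated well of gut 9 came close to the whole guts but stayed below them. In batch 1, however, the untreated well of gut 6 scored 2.91, above all whole guts. Krt20 scored 1.91, 2.07 and 2.11 in the whole guts, against -0.11, -0.49, -0.17 and 2.25 with GDNF and -0.30, 0.038, 0.21 and -1.996 without it. The wells of gut 9 thus gave both the highest and the lowest Krt20 score of all wells. From GDNF-treated and untreated wells the differences were 1.795 and 2.99 for Krt18, 1.68 and 2.565 for Krt20, and 3.15 and 2.61 for Krt8.

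**Figure D2:**
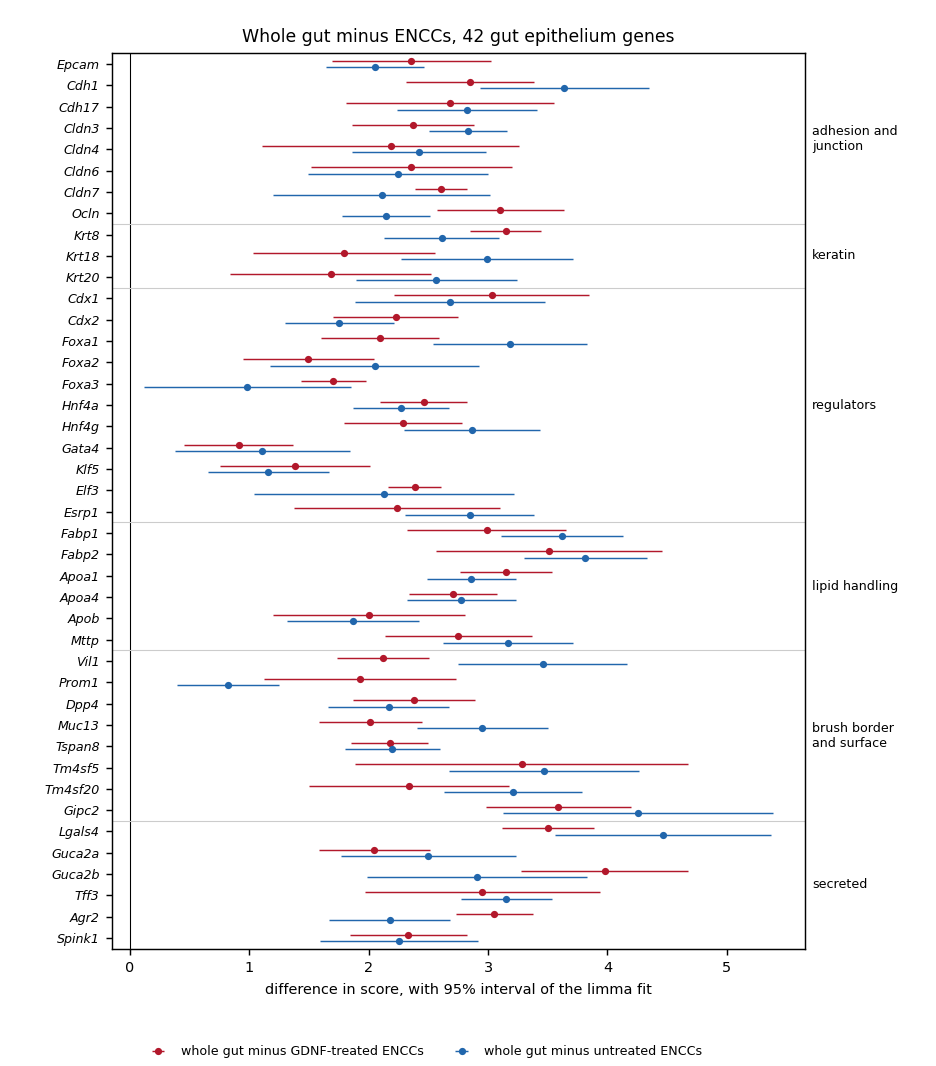
Difference in score of whole gut from GDNF-treated and from untreated ENCCs for each of the 42 genes, with genes down the page by role and bars that give the 95% interval of the limma fit with 1 variance. All differences lie above 0, from 0.82 for Prom1 to 4.47 for Lgals4, both against untreated wells.

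The differences of the 11 regulators ran from 0.91 to 3.03 against GDNF-treated and from 0.98 to 3.185 against untreated wells. Limma called 11 of them higher against GDNF-treated wells, and 10 against untreated wells or 9 with a variance for each group. Foxa1, a pioneer factor of endoderm, scored 2.30, 2.36 and 2.49 at the lowest, median and highest of the whole guts. Its wells of guts 2, 3, 8 and 9 scored 1.06, 0.57, -0.016 and -0.53 with GDNF and -1.34, 0.61, -1.26 and -1.29 without it. The untreated wells of guts 2, 8 and 9 lay below every treated well, and the difference was 2.095 from GDNF-treated wells (limma adjusted p = 6.5e-06) and 3.185 from untreated wells (adjusted p = 2.0e-06).

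Foxa3, of the same family, scored 1.395, 1.42 and 1.45 in the whole guts at the lowest, median and highest. Its treated wells scored -0.15, -0.65, -0.042 and -0.28, and its untreated wells 0.71, 2.21, -0.95 and -0.22, so the untreated well of gut 3 lay above all whole guts. Foxa3 differed by 1.70 from GDNF-treated wells (limma adjusted p = 2.1e-07). Foxa2 scored 1.49, 1.665 and 2.095 in the whole guts, against 0.86, -0.76, 0.69 and 0.091 with GDNF and 0.51, 0.37, 0.11 and -2.34 without it. No well reached the whole guts, and Foxa2 differed by 1.49 and 2.05 from treated and untreated wells.

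Of the intestinal homeobox genes, Cdx1 differed by 3.03 from GDNF-treated and by 2.68 from untreated wells, and Cdx2 by 2.23 and 1.755. The nuclear receptor genes Hnf4a and Hnf4g differed by 2.46 and 2.27, and by 2.29 and 2.86. Elf3, an ETS factor of epithelia, differed by 2.39 and 2.13, and Esrp1, which sets epithelial splicing, by 2.24 and 2.85. Gata4, a zinc finger factor of the upper intestine, differed by 0.91 and 1.11, and Klf5, a factor of dividing epithelial cells, by 1.39 and 1.16. Probe sets of 1 gene disagreed in several of the 42. For Klf5, 2 of the 3 probe sets differed from GDNF-treated wells by 2.93 and 2.12, but the other by -0.89 (limma adjusted p = 0.0370), with ranks among all probe sets from 15340 to 34955 in the whole guts. For Gata4, 1 probe set differed by 1.41 from either kind of well and the other by 0.41 and 0.81, neither of which passed (limma adjusted p = 0.343 and 0.115). For Hnf4a, 1 of the 4 probe sets differed from untreated wells by 0.33 without a call (limma adjusted p = 0.469), where the others differed by 2.37 to 3.35. A probe set of Tspan8 against untreated wells (0.93, limma adjusted p = 0.0767) and another of Dpp4 against GDNF-treated wells (1.145, adjusted p = 0.0595) were also not called. Of the 74 probe sets taken singly, limma called 71 higher and that of Klf5 lower against GDNF-treated wells, and 69 higher and 0 lower against untreated wells.

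All 6 lipid handling genes were called higher in both comparisons. Fabp2, the intestinal fatty acid binding protein, scored 3.42, 3.45 and 3.51 at the lowest, median and highest of the whole guts, and its probe set ranked between 10 and 14 of all 45101 on each of these arrays. The wells of guts 2, 3, 8 and 9 scored -1.17, 2.01, -0.18 and -0.87 with GDNF and -1.26, 0.47, -0.39 and -0.26 without it. Gut 3 gave the highest well on both sides. Fabp2 differed by 3.51 from GDNF-treated wells (limma adjusted p = 2.1e-05) and by 3.81 from untreated wells (adjusted p = 9.8e-08), the largest difference of this role.

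Apob, the core protein of lipid particles, had the smallest as the mean of 2 probe sets, which differed singly from untreated wells by 2.80 and 0.93. It scored 1.69, 1.93 and 2.155 at the lowest, median and highest of the whole guts, against 1.22, -1.66, -0.0078 and 0.12 with GDNF and -0.036, -0.15, 1.10 and -0.70 without it. The groups did not overlap, and Apob differed by 2.00 and 1.87 from treated and untreated wells. Mttp, which loads lipid onto the Apob protein, differed by 2.75 and 3.17, and Fabp1 by 2.99 and 3.62. The apolipoprotein genes Apoa1 and Apoa4, which lie on chromosome 9 with 1 protein-coding gene between them, differed by 3.15 and 2.86, and by 2.71 and 2.78.

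Hepatocytes also make most of these lipid handling proteins, and the hepatocyte markers moved in part with them. Of 15 measured, limma called 7 higher against GDNF-treated wells and 7 against untreated wells, or 5 in each with a variance for each group. Their mean score ran from 0.651 to 1.085 over the whole guts, against -0.32 to 0.34 over GDNF-treated and -0.39 to 0.29 over untreated wells. Albumin, whose gene Alb was named after its values were seen, scored 0.51 to 1.99 in the whole guts. Of 11 pancreas genes, limma called 8 higher against treated and 4 against untreated wells (Ctrb1, Cel and, named after their values were seen, Ins2 and Cpa1), or 3 and 2 with a variance for each group, with a mean score of 0.65 to 1.46 over the whole guts. The part of liver or pancreas tissue in the results was not tested.

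Of the 8 brush border and surface genes, all were called higher in both comparisons. Gipc2, a PDZ adaptor protein, scored 3.46, 3.56 and 3.69 at the lowest, median and highest of the whole guts. Its wells of guts 2, 3, 8 and 9 scored 1.05, 0.29, -0.67 and -0.80 with GDNF and -2.43, -0.14, -1.83 and 1.62 without it. The untreated wells of guts 2 and 9 held the lowest and the highest scores of all wells, and Gipc2 differed by 3.59 from GDNF-treated wells (limma adjusted p = 3.2e-07) and by 4.26 from untreated wells (adjusted p = 2.1e-05).

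Prom1 scored 1.35, 1.39 and 1.43 at the lowest, median and highest of the whole guts, against 0.77, 0.21, -1.42 and -1.70 with GDNF and 1.31, 0.62, 0.21 and 0.15 without it. The untreated well of gut 2 lay just below the lowest whole gut. Prom1 differed by 1.93 from GDNF-treated wells (limma adjusted p = 7.8e-04) and by 0.82 from untreated wells (adjusted p = 0.00425). Villin, the actin-binding protein of microvilli encoded by Vil1, differed by 2.12 and 3.46, and the brush border peptidase Dpp4 by 2.38 and 2.17. The transmembrane mucin Muc13 differed by 2.015 and 2.95 and the tetraspanin Tspan8 by 2.18 and 2.20. The membrane proteins Tm4sf5 and Tm4sf20 differed by 3.28 and 3.47, and by 2.34 and 3.21.

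All 6 secreted or secretory genes were called higher in both comparisons. Lgals4 scored 3.65, 3.87 and 3.92 at the lowest, median and highest of the whole guts, and its probe set ranked between 2 and 6 of all 45101 on these arrays. The wells of guts 2, 3, 8 and 9 scored -0.077, 0.93, -0.0058 and 0.48 with GDNF and -0.054, 0.43, -2.73 and -0.17 without it. The untreated well of gut 8 was the lowest by far, and Lgals4 differed by 3.50 from GDNF-treated wells (limma adjusted p = 9.35e-09) and by 4.47 from untreated wells (adjusted p = 2.1e-06).

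Agr2, an enzyme of protein folding in goblet cells, scored 2.48, 2.66 and 2.70 in the whole guts at the lowest, median and highest, against -0.44, -0.017, -0.89 and -0.32 with GDNF and 0.34, 0.34, -0.26 and 1.40 without it. The groups did not overlap. Agr2 differed by 3.05 and 2.18 from treated and untreated wells, the goblet cell peptide gene Tff3 by 2.95 and 3.15, and the protease inhibitor gene Spink1 by 2.33 and 2.25. Guca2a differed by 2.05 and 2.50. Guca2b, which encodes uroguanylin, scored -0.88, -1.20, 0.26 and 0.16 with GDNF and 1.46, 0.41, 1.78 and -1.02 without it, while its whole guts lay between 2.46 and 3.92 with a median of 3.75. The lowest of those was gut 4, and the highest well was the untreated well of gut 8.

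Lists of other epithelial genes that are not among the 42 were counted in the same fits, and these lists were also drawn up with earlier results known. Of 20 other genes of gut epithelium, limma called 18 higher against GDNF-treated wells (17 with a variance for each group) and 20 against untreated wells (18), with median differences of 1.93 and 2.15. Ap1m2, a sorting adaptor of polarised epithelia, differed by 2.97 from untreated wells and the claudin Cldn15 by 2.80. Of 19 genes of absorptive enterocytes, 16 (13 with a variance for each group) were higher and 1, Treh, lower against GDNF-treated wells, and 15 (10) were higher and 1, Cyp2j6, lower against untreated wells. Neither lower call was made with a variance for each group, and both genes were named after their values were seen. The intestinal phosphatase Alpi differed by 3.00 from untreated wells, and the apolipoprotein Apoc3 by 2.60. Of 17 genes of secretory and endocrine cells, 12 (9) were higher against treated and 13 (9) against untreated wells. They were led by the peptide hormone genes Gcg (3.36) and Sct (3.01). Genes of other gut tissues were counted against untreated wells, with the count under a variance for each group in brackets. Limma called higher 11 (11) of 12 endothelial, 11 (6) of 12 smooth muscle, 11 (10) of 12 macrophage, 8 (6) of 9 mesothelial and 6 (3) of 9 erythroid genes. The macrophage gene Adgre1, named after its values were seen, was called lower in both fits (-1.96). Of 6 ribosomal protein genes 5 (3) were higher against GDNF-treated wells and 0 (0) against untreated wells.

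Most of the 42 genes had close scores from one whole gut to another. Their median SD over the 8 guts was 0.049, against 0.154 over all genes and 0.067 over the 458 genes with a mean score above 2, the range in which most of the 42 lie. The scores come from ranks within an array, so these SDs are not a spread of expression. Without gut 4 the median SD was 0.026, against 0.138 and 0.040.

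Gut 4 was the lowest whole gut in most lipid handling genes and the highest in most junction genes. It was the lowest of the 8 in 17 of the 42 genes, beside 20.8% of all genes, and the highest in 11, beside 24.4% of all genes. The share of the 42 that were highest there was thus close to that of all genes. Scores are ranks within an array, so genes that fall let others rise. By role it was lowest in 5 of 6 lipid handling genes, 4 of 6 secreted genes, 4 of 11 regulators, 3 of 8 surface genes, 1 of 3 keratins and 0 of 8 junction genes. It was highest in 5 of 8 junction genes, 2 of 3 keratins, 3 of 11 regulators and 1 of 8 surface genes, and in none of the lipid handling genes. Of the secreted genes none was highest in gut 4 alone. Lgals4 tied at 3.92 in guts 1, 2, 4 and 7, and the tie was not counted for gut 4. These counts were read from 1 gut, with no test. Taken by probe set, gut 4 was lowest in 31 of 74 and highest in 22. The share over all probe sets was not counted, so these counts are no result about the 42 genes.

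The largest gap was in Guca2b, which scored 2.46 in gut 4 and 3.44 to 3.92 in the others, so that its probe set ranked 314 in gut 4 and 2 to 13 in the others. Its neighbour Guca2a on chromosome 4, with 0 protein-coding genes between them, was also lowest there, at 1.92 against 2.10 to 2.17. Both hormones act on the same receptor of the gut surface and regulate salt and water. Apoa4 scored 2.24 in gut 4 and 2.69 to 2.76 in the others, Mttp 2.63 and 2.82 to 2.90, and Apob 1.69 and 1.81 to 2.155. Apoa1 scored 2.85 against 2.96 to 2.99. Fabp2, by contrast, lay within the range of the other guts, at 3.44 against 3.42 to 3.51.

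Several genes of other roles were lowest in gut 4 as well. Krt20 scored 1.91 in gut 4 and 2.045 to 2.11 in the others, Muc13 2.45 and 2.58 to 2.62, Spink1 2.10 and 2.22 to 2.26, and Hnf4g 2.225 and 2.34 to 2.42. Agr2 scored 2.48 against 2.58 to 2.70, and Cdx1 2.77 against 2.78 to 2.91. The gaps of Cdx2, Foxa3, Fabp1, Vil1 and Tm4sf20, also lowest in gut 4, were under 0.1 from the mean of the others.

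Gut 4 was the highest of the 8 in 5 of the 8 junction genes among the 42, but mostly the lowest in those of the other epithelial list. Of 6 such genes there, named after their values were seen, it was lowest in 5: Cldn2 (1.75 against 2.08 to 2.23), Cgn (1.37 against 1.52 to 1.65), Marveld3 (1.03 against 1.29 to 1.45), Tjp3 (1.66 against 1.81 to 1.875) and Cldn15 (2.24 against 2.245 to 2.34). It was highest in Marveld2 (1.93 against 1.73 to 1.90). Cldn6 scored 2.78 in gut 4 and 2.105 to 2.645 in the others, Cldn4 2.59 and 2.41 to 2.53, and Cldn3 2.73 and 2.57 to 2.65. Cldn3 and Cldn4 are neighbours on chromosome 5, as Krt8 and Krt18 are on chromosome 15, and the members of each pair lay on the same side. Cdh1 scored 3.04 in gut 4 and 2.93 to 2.98 in the others. Krt8 was at 2.84 against 2.75 to 2.80, and Krt18 at 2.75 against 2.69 to 2.72. Of the regulators, Foxa2 scored 2.095 against 1.49 to 1.85 and Foxa1 2.49 against 2.30 to 2.39, and Esrp1 2.65 against 2.525 to 2.59.

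**Figure D3:**
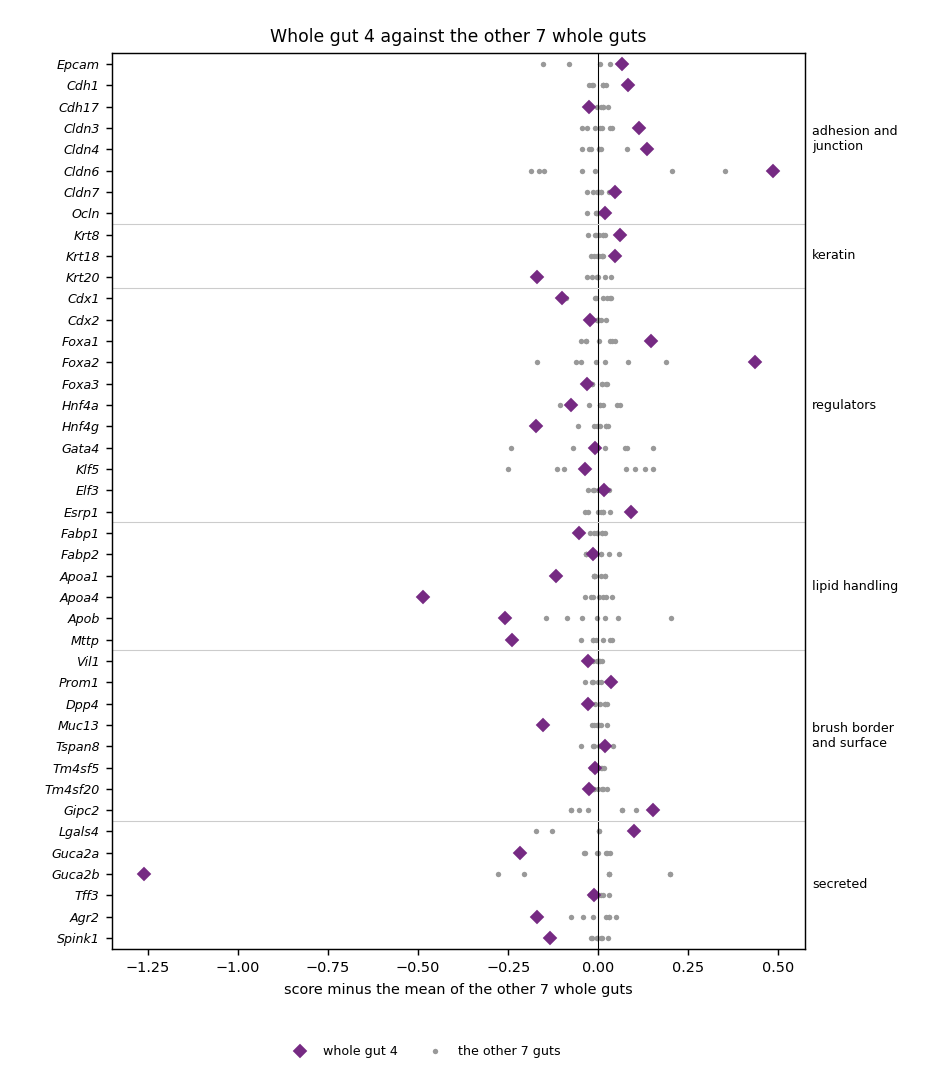
Score of each whole gut minus the mean of the 7 whole guts other than gut 4, with the 42 genes down the page by role, gut 4 as a diamond and the other 7 guts as points. Gut 4 lies lowest in 5 of 6 lipid handling genes and highest in 5 of 8 junction genes, and its largest gap is that of Guca2b, -1.26.

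The same gut lay lowest in genes of absorptive cells outside the 42. Of 19 such genes it was lowest in 17 and highest in 1, and their mean score was 1.43 in gut 4 and 1.91 to 2.08 in the others. Named after their values were seen, the retinol binding protein Rbp2 scored 1.011 in gut 4 and 2.59 to 2.82 in the others, the glucose transporter Slc2a2 0.88 and 2.37 to 2.61, and the peptide transporter Slc15a1 0.56 and 1.63 to 2.56. Of 17 secretory and endocrine genes it was lowest in 11, with a mean of 1.145 against 1.57 to 1.67, and of 20 other epithelial genes in 12, with a mean of 1.705 against 1.82 to 1.86. Among other cell types the mean of the hepatocyte list was also lowest in gut 4, at 0.65 against 0.77 to 1.085, while that of the pancreas list was lowest in gut 5. The smooth muscle list averaged 1.495 in gut 4 and 1.48 to 1.565 in the others, the endothelium list 1.905 and 1.82 to 1.86, and the ribosomal protein list 0.86 and 0.73 to 0.82. Over all genes gut 4 correlated with the other guts at 0.914 to 0.939. The part of liver tissue or of RNA quality in these differences was not tested.

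**Figure D4:**
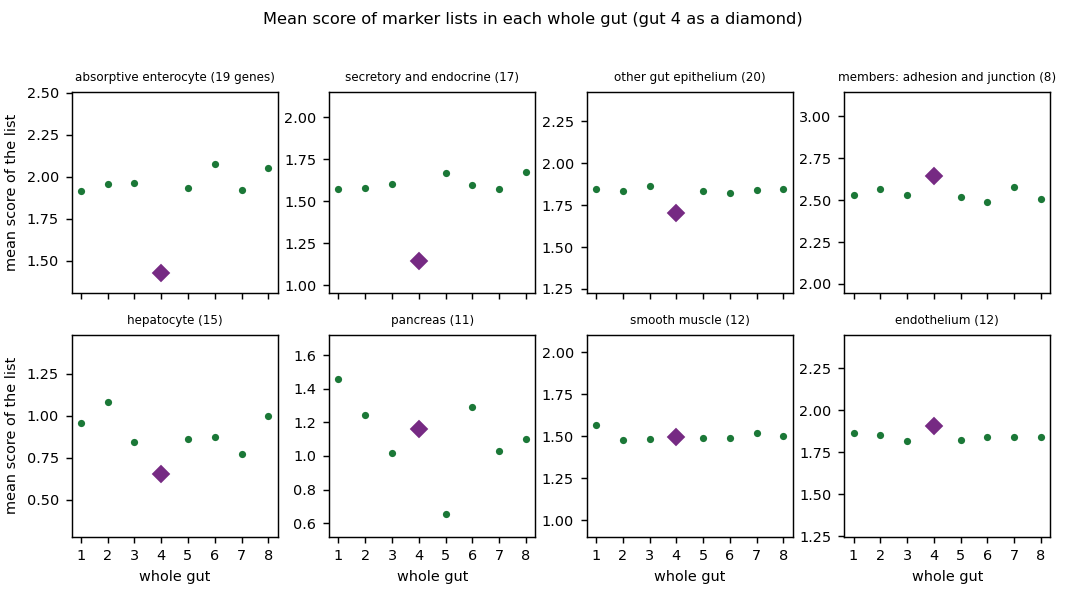
Mean score of 8 gene lists in each of the 8 whole guts, with the gut number on the horizontal axis, 1 list a panel, vertical axes of equal length that start at different scores, and gut 4 as a diamond. Gut 4 lies lowest for the absorptive, secretory and other epithelial lists and highest for the junction genes, while the smooth muscle list stays within 1.48 to 1.565.

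With GDNF, 4 of the 42 genes were called, a smaller share than over all genes. Treated minus untreated wells were taken gut by gut, which gave 9 differences a gene. Limma called 2 of the 42 higher and 2 lower, where it called 18.3% of all genes higher, 13.2% lower and 31.5% in either direction, and the median over the 42 was 0.052. In 1 gene the difference was above 0 in all 9 guts, as in 11.7% of all genes, and in 1 it was below 0 in all 9, as in 6.14% of all genes.

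The 2 genes that rose were Mttp and Krt20. Mttp scored -0.35, 0.40 and 1.21 at the lowest, median and highest of the 9 treated wells, against -1.39, -0.31 and 0.41 of the 9 untreated wells, where arrays of 1 RNA were averaged. The wells of the 2 groups overlapped, but within each gut the treated well was higher, by 0.15 to 1.32. The mean difference was 0.76 ± 0.39 (SD, n = 9 guts, limma adjusted p = 0.0101). In batch 2 alone, with 4 guts, it was 0.42 and was not called, but there limma called 0 of all genes. Krt20 scored -0.53, 0.42 and 1.78 with GDNF, against -1.20, -0.48 and -0.25 without it. The treated well was higher in 7 of 9 guts, and gut 9 gave the largest difference, 2.98. The mean difference was 0.88 ± 1.00 (SD, n = 9, limma adjusted p = 0.0415). Krt20 was no longer called without the wells of gut 4, 5, 6, 7, 8 or 9, nor in batch 2 alone (0.88).

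Prom1 and Spink1 fell. Prom1 scored -1.78, -0.605 and 0.61 at the lowest, median and highest of the treated wells, against -0.74, 0.32 and 1.78 of the untreated wells. The treated well was lower in 8 of 9 guts, with gut 1 as the exception. The mean difference was -1.09 ± 0.63 (SD, n = 9, limma adjusted p = 0.00306), and it was -1.11, without a call, in batch 2 alone. Prom1 is also a surface protein of progenitor cells of several tissues. Spink1 scored -1.18, -0.68 and -0.16 with GDNF, against -0.38, -0.078 and 0.95 without it, and the treated well was lower in 9 of 9 guts. Its mean difference was -0.72 ± 0.48 (SD, n = 9, limma adjusted p = 0.0186). In batch 2 alone it was -0.080, and it was not called without gut 5 or gut 8.

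Of the other 38 genes none passed as the mean of its probe sets. Tspan8, at 0.22 ± 0.51 (SD, n = 9 guts), averages 5 probe sets of which limma called 1 higher (1.22, adjusted p = 0.0110) and 1 lower (-1.001, adjusted p = 0.0160). Fabp1 came nearest, at 0.69 ± 0.71 (SD, n = 9, limma adjusted p = 0.0503), above 0 in 7 of 9 guts. It was called with a trended and robust variance, and without gut 1 or gut 7. Esrp1 was called without gut 2 and Cdx2 without gut 3. Esrp1 was at 0.71 ± 1.19, Lgals4 at 0.66 ± 1.21, Tm4sf5 at -0.80 ± 2.42 and Krt8 at -0.69 ± 1.72. The 95% intervals of Tm4sf5, -2.17 to 0.56, and of Krt8, -1.69 to 0.32, hold differences as large as those that were called, so differences of that size in either gene could have been missed. For Hnf4g the interval ran from -0.43 to 0.46.

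The scores of the 42 genes in ENCCs repeated little between batches. Over the 7 RNAs read in both batches the median correlation of a gene between batches was 0.068 for the 42 and 0.391 for all genes, a description over 7 RNAs of both treatments, with no test. Klf5 (0.93) and Prom1 (0.82) repeated best among the 42 and Agr2 (-0.92) least. Of the called genes Krt20 was at 0.44, Mttp at 0.40 and Spink1 at -0.24. The median SD of the 42 was 0.74 among the 4 GDNF-treated and 0.80 among the 4 untreated wells of batch 2, where that of all genes was 0.709 and 0.755.

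**Figure D5:**
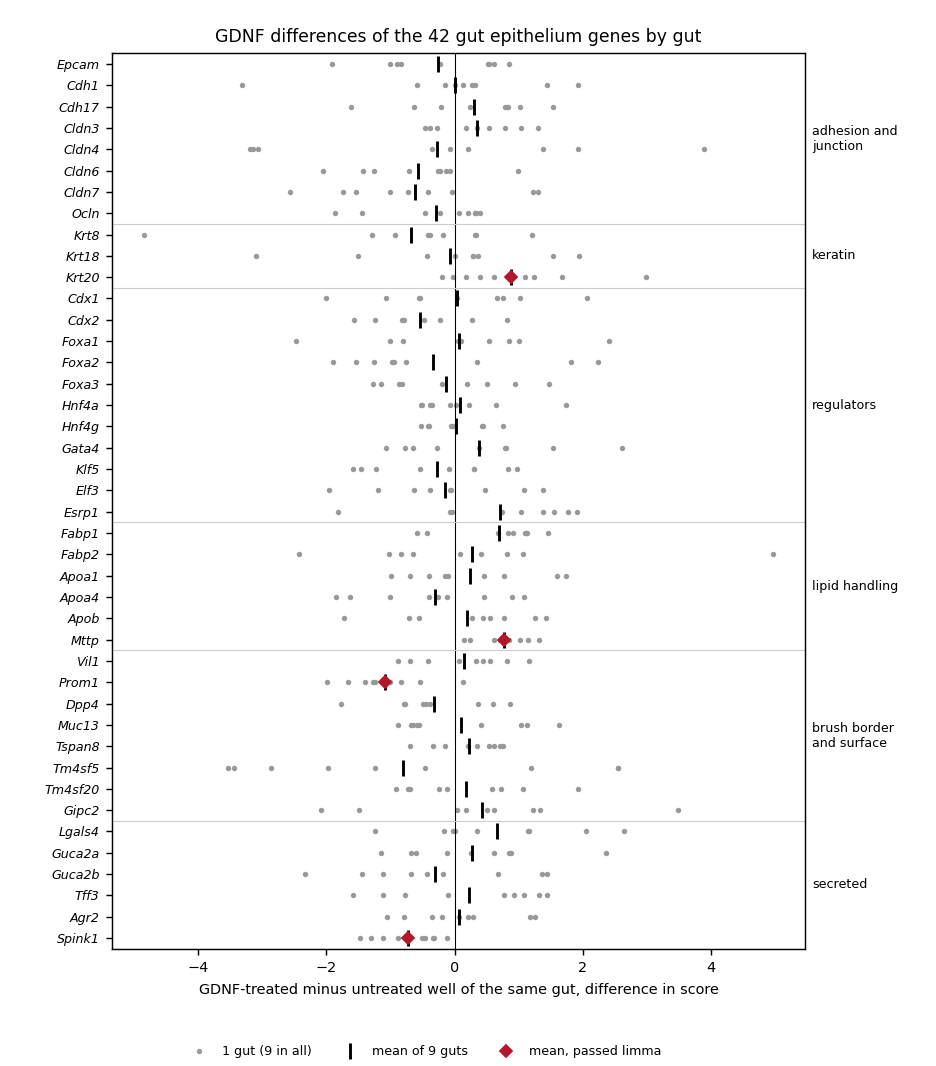
Score of the GDNF-treated minus the untreated well of the same gut for each of the 42 genes, with genes down the page by role, grey points for the 9 guts, a bar for their mean and a diamond for a mean that passed limma. The diamonds are Krt20 (0.88), Mttp (0.76), Prom1 (-1.09) and Spink1 (-0.72), and most other genes have points on both sides of 0.

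Other epithelial genes outside the 42 were counted in the same fit. Of 20, limma called 6 higher with GDNF and 0 lower: Krt19, Cgn, Marveld2, Spint1, Spint2 and Ap1m2, with differences of 1.03 to 1.58. These genes were named after their values were seen, and Krt19 also marks mesothelium. Of 19 absorptive genes 0 were higher and 2, Anpep and Cyp2j6, lower, also named after their values were seen. Ribosomal protein genes were lower in 5 of 6 and higher in 0, and 6 of 13 neural crest and neuron genes rose. The part of either in the differences of the 42 genes was not tested. Whether the share called differs between these lists was not tested.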

How the data were processed

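RNA of 33 samples was read on Affymetrix arrays, and the submitters' processing notes name RMA without a version. The deposited values are scores: the sorted values of each array equal normal quantiles of the rank to within 5e-06, and the authors' centring and scaling on ENCC arrays was read from the values, since no label records it. The design had assumed log2 values, so no brightness filter or fold could be used. Of 45101 probe sets, 34958 had 1 symbol in the platform annotation, 932 had several and 9211 had none. Leaving out the 64 control probe sets left 34945 for 18193 genes, and the score of a gene is the mean of its probe sets.

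Limma 3.58.1 (lmFit and eBayes, in R 4.3.3, with statmod 1.5.0) was fitted across all 18193 genes, with Benjamini-Hochberg adjustment and a threshold of 0.05. Whole guts were compared with the GDNF-treated and the untreated ENCCs of batch 2 only. For GDNF, 1 difference a gut entered, averaged over batches where a gut was read in both. That both wells come from 1 gut is stated in the labels' treatment protocol, and the gut number is that of the titles. The labels do not say whether whole gut RNAs came from 1 embryo each or whether embryos shared a litter, so p-values measure the spread between these samples. In simulated data the fit with 1 variance for whole gut and wells called unchanged genes too often, so counts from a variance for each group stand beside it. That fit also made false calls, 31 against untreated and 39 against GDNF-treated wells, where 1 variance made 695 and 745. Of 100 true differences of size 1 it found 9 and 16, and of 100 of size 2 it found 49 and 52. No other genes of the 18193 differed in the simulation. In the real data far more were called, so these rates need not hold there. Alternatives changed the probe set summary, the filter, the variance, the samples and the batches. Depth has no meaning for arrays, and their number limits the precision.

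The members and lists were chosen with earlier results of these data known. Every member is named, and sample values are given for the members with the largest and smallest difference from untreated ENCCs in each role, the members called for GDNF and the 3 with the largest SD among whole guts. Of each other list the 2 genes with the largest difference from untreated ENCCs may be named, and others are said to be named after their values were seen. Gene symbols and promoters come from RefSeq tables, and the promoter motifs are short core letters chosen with the array results known.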

Additional observations from a re-analysis of the deposited data

Results flagged for a closer look

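A sample was marked where its gap to the nearest of its group was large for the range of the group by Dixon's criterion. Chance marks about 1 in 20 groups, and over all genes 10.7% were marked among the 8 whole guts, 5.29% among the 4 GDNF-treated wells, 8.62% among the 4 untreated wells of batch 2 and 6.92% among the 9 differences between wells of a gut.

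Among whole guts 10 of the 42 genes were marked, all through gut 4. It lay below the other guts in Krt20 (1.91), Hnf4g (2.225), Apoa1 (2.85), Apoa4 (2.24), Mttp (2.63), Muc13 (2.45), Guca2a (1.92), Guca2b (2.46) and Spink1 (2.10), and above them in Cdh1 (3.04).

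Among GDNF-treated wells 3 of 42 were marked: Krt20 in gut 9 (2.25), Elf3 in gut 8 (-0.12) and Spink1 in gut 8 (-1.12). Among untreated wells 4 of 42 were marked, Krt18 in gut 2 (1.37), Foxa1 in gut 3 (0.61), Foxa2 in gut 9 (-2.34) and Tm4sf5 in gut 2 (-2.39). Among the differences between wells 3 of 42 were marked, all in gut 6: Cdh1 (-3.31), Krt8 (-4.84) and Fabp2 (4.97).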

How the results depend on the processing

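Of the genes' called differences none changed sign under the alternatives that give 1 value a gene, but with probe sets taken singly 1 of the 3 of Klf5 was called lower against GDNF-treated wells (-0.89), where the mean of the 3 was called higher (1.39). Leaving out 1 sample at a time, limma called 42 of the 42 genes against GDNF-treated wells and 41 to 42 against untreated wells. The other alternatives gave 41 to 42 and 39 to 41, and with probe sets taken singly every probe set of a gene was called higher in 39 and 37 genes. Prom1 (0.82), called against untreated wells, was not called with all 3 groups in 1 fit, with both batches and a batch term (0.85), with a minimum difference of 1, or with the spread taken from ENCC wells alone, an alternative added after the data were seen. Over all genes the count called against GDNF-treated wells was 9281, and 5805 with a variance for each group, 5057 with the spread of wells alone and 6203 with a minimum difference of 1. Against untreated wells it was 7752, 3761, 3757 and 4762.

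For GDNF the design pairs the wells of a gut. With no replicate block limma called 4 of the 42 genes, as with the pairing, and called 2930 genes higher and 1929 lower in all. With probe sets singly it called every probe set of 2 genes, and in batch 2 alone 0 (2 at an unadjusted p under 0.05). Batch 1 alone gave the same 4 genes, and fits without 1 gut gave 2 to 5. Over all genes the count was 5725 with 9 guts, 5324 in batch 1 alone and 0 in batch 2 alone, which has 4 guts. The median SD of the 42 genes among whole guts was 0.02575 to 0.05255 without 1 gut, the lowest without gut 4.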

Other observations

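Embryonic globin genes and some mesothelium genes were highest in gut 4. The erythroid genes with the largest difference from untreated wells were Hbb-y and Hba-x, globins of primitive red cells. Hbb-y scored 3.39 in gut 4 and 2.775 to 3.24 in the other 7 whole guts, and Hba-x 2.32 and 1.33 to 2.09. Hbb-bh1, a globin of the same cells named after its values were seen, scored 1.78 and 0.57 to 1.33. Hba-a1, an alpha globin also named after its values were seen, scored -1.13 in gut 4 and -1.02 to 0.15 in the others. The other 5 erythroid genes of the 9 lay within the range of the other guts, and so did the list mean, at 1.05 against 0.75 to 1.20. Of the 9 mesothelium genes gut 4 was highest in 5 and lowest in 0, and Lrrn4 scored 2.23 against 1.79 to 2.10.

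Pancreas genes varied among the whole guts in another way than the 42 genes. The list mean was 0.65 in gut 5 and 1.02 to 1.46 in the others. Ctrb1, which encodes a digestive protease, scored 2.54 in gut 5 and 3.04 to 3.37 in the others, and Cel, a lipase, 1.07 and 1.87 to 2.31. Gut 5 was the lowest of the 8 in 0 of the 42 genes, beside 12.15% of all genes, and the highest in 8, beside 7.44% of all genes.

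Secretory genes other than the 42 spread widely in gut 4. Named after their values were seen, the mucin gene Muc2 scored 0.57 in gut 4 and 1.46 to 1.64 in the others, the hormone gene Gip 0.080 and 1.10 to 1.77, and Sst 0.095 and 0.90 to 1.503, while Neurog3, a factor of endocrine precursors, was highest there, at 2.20 against 1.95 to 2.09.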
